A study of Homo sapiens with 6 samples.

Results

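The genes described here act in adenosine and ATP signalling. They are 10 genes taken by name from a table of 35424 features: the enzymes NT5E, ENTPD1 and ADA, the adenosine receptors ADORA2A, ADORA2B and ADORA3, the ATP-gated channels P2RX4 and P2RX7, and the G protein-coupled nucleotide receptors P2RY2 and P2RY6. Each name matched 1 row. The choice went by name under no rule on measured values, though earlier results of these data were known. The data are RNA-seq of THP-1, a cell line of human acute monocytic leukaemia, with 3 libraries of cells treated with PMA and 3 libraries of untreated cells. PMA, a phorbol ester and activator of protein kinase C, pushes such cells towards a macrophage-like state. The comparison asks which transcripts differed after PMA treatment. Both groups were wild-type cells of the same line, so they stand for 1 leukaemia and not for primary monocytes. No source used here gives the dose or duration of PMA for the RNA-seq.

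ATP leaves activated, stressed or dying cells and acts as a danger signal on P2X channels and P2Y receptors of neighbouring cells. Enzymes on the cell surface then strip its phosphates, first to AMP through CD39 (the product of ENTPD1) and then to adenosine through CD73 (the product of NT5E). Adenosine acts on its own receptors, which in macrophages are best known for dampening inflammatory output, until it is taken up by transporters or deaminated to inosine.

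The deposited counts summed to between 64361886 and 65698834 in the PMA libraries and to between 61547700 and 88227830 in the untreated libraries. Untreated replicate 3 stood apart, with 7.45% of counts from mitochondrial genes against 5.80 to 6.29% in the PMA libraries and 4.33 and 4.46% in the other untreated libraries, and with a summed FPKM of 298737 against 257706 to 264129 in the other 5 libraries. Without it, the 9 tested genes kept their calls except ENTPD1. Monocyte identity was present in both groups: 7 of 10 monocyte and macrophage markers reached 1 FPKM (fragments scaled to transcript length and library size) in every PMA library and 6 of 10 in every untreated library, with summed levels of 434 to 495 FPKM after PMA and 238 to 246 FPKM in untreated cells. The markers behind these sums did not all rise. CSF1R had 119 to 132 FPKM after PMA and 3.41 to 4.02 FPKM in untreated cells. CD68, SPI1 and FCGR1A were also higher in every PMA library than in every untreated library. CD33 was lower, at 9.29 to 10.5 FPKM after PMA and 13.04 to 14.3 FPKM in untreated cells. ITGAM and LYZ overlapped between groups. LYZ alone set the counts of 7 and 6 apart, with 0.990 FPKM in untreated replicate 2. CD14, CD163 and MRC1 stayed under 1 FPKM in all 6 libraries. Markers of other cells were low. Of the B cell markers, PAX5 had 5.03, 5.005 and 5.97 FPKM in the PMA libraries, against 0.394, 0.542 and 0.415 FPKM in the untreated libraries, while CD79A stayed under 1 FPKM in all 6. The 4 endothelial markers summed to 1.19 to 1.37 FPKM after PMA, nearly all from VWF, and to at most 0.349 FPKM in untreated cells. Fibroblast and platelet markers summed to at most 1.17 FPKM, and of the T cell markers only FOXP3 was analysed here, at no more than 0.277 FPKM. Neutrophil markers, which monocytes share in part, summed to 16.5 to 17.7 FPKM after PMA and 16.8 to 19.1 FPKM in untreated cells. The part of these levels in the results below was not tested.

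Of the 10 genes, 9 reached the level needed for a test (1 FPKM or more in 3 or more of the 6 libraries). Among them 6 were higher and 2 were lower after PMA at an adjusted p under 0.05 (edgeR's quasi-likelihood test, Benjamini-Hochberg adjustment over 12947 genes). P2RX7 did not pass, and ADORA2A was too low to be tested. PMA changed much of the transcriptome: 65.5% of all genes tested passed in either direction, 32.7% higher and 32.8% lower, so calls as such set these genes little apart. NT5E and ADA reached the test level largely through the group in which each is high, so the count over the 9 genes is a description only. Their median log2 fold change was 0.53, against -0.01 over all genes tested. The libraries of the 2 groups did not overlap in FPKM for 8 of the 9 genes, against 70.4% of all genes tested. The changes ranged from the largest rise, in NT5E, to the largest fall, in P2RY2. In bulk RNA a change in the RNA of each cell and a change in which cells are present cannot be told apart.

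**Figure D1:**
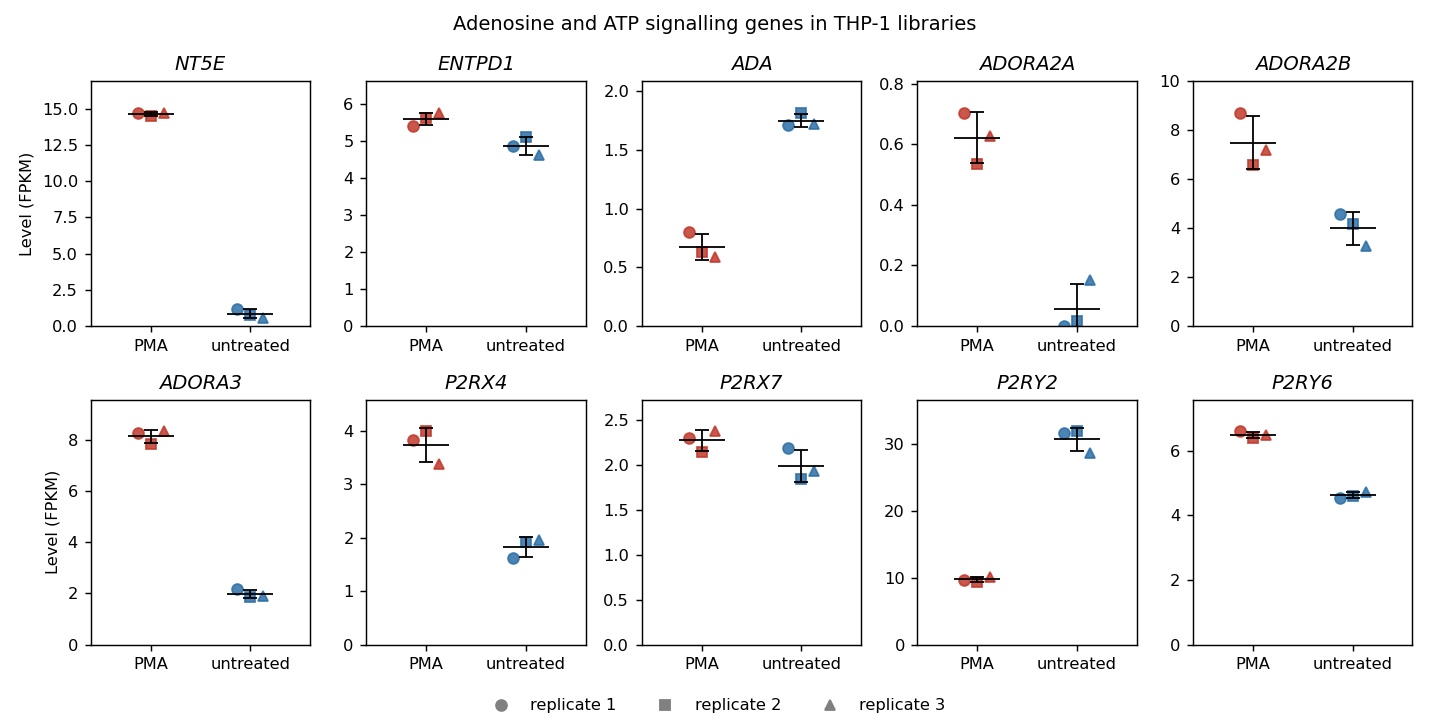
FPKM of the 10 genes (vertical axes, each starting at 0) in each of the 3 PMA and 3 untreated libraries, with the mean as a horizontal line and the SD as a bar. NT5E stood near 14.6 FPKM in the PMA libraries and at or under 1.20 in the untreated libraries, P2RY2 ran the other way, and the P2RX7 libraries overlapped.

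NT5E encodes CD73, the surface enzyme that makes adenosine from AMP, and rose the most of the 9 tested genes. Its level was 14.67, 14.48 and 14.70 FPKM in the PMA libraries, against 1.20, 0.74 and 0.58 FPKM in the untreated libraries. All PMA libraries were far above all untreated libraries, and the PMA libraries lay close together. The means were 14.6 ± 0.119 FPKM after PMA and 0.843 ± 0.324 FPKM in untreated cells (SD, n = 3 each). The rise was 17.6-fold, or 4.14 ± 0.24 on the log2 scale (standard error, 95% interval 3.58 to 4.70, adjusted p = 3.975e-06 by edgeR). NT5E ranked 189 from the largest rise among the 12947 genes tested, of which 1.56% rose at least 16-fold. In untreated cells only replicate 1 reached 1 FPKM, so the test level was met through the PMA libraries. Untreated replicate 1 also held the highest untreated value, and without it the log2 fold change was 4.49. NT5E (ENSG00000135318) lies on the plus strand of chr6:85449584-85495791 (hg38).

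The promoter windows were searched for sites of factors tied to phorbol esters and to myeloid cells, and the NT5E match is shown because this gene rose the most. RefSeq promoter sequences (GRCh38.p14) matched 7 of the 10 genes, in 11 windows of the 250 bases before a transcription start, and ADORA2A, P2RY2 and P2RY6 had no entry. The letters searched, on both strands, were TGACG (core of the cAMP response element), TGACGTCA (the full element, which contains that core), TGANTCA (the AP-1 site), TTGCNNAA (C/EBP), GAGGAAGT (PU.1) and GCGNGGGCG (EGR). Over 35116 RefSeq promoters of the same length the shares with a match were 21.22% for TGACG, 1.646% for TGACGTCA, 6.573% for TGANTCA, 9.05% for TTGCNNAA, 2.167% for GAGGAAGT and 8.415% for GCGNGGGCG. None of the 11 windows held TGACGTCA, TGANTCA or TTGCNNAA. TGACG lay in windows of NT5E, ENTPD1, P2RX4 and ADORA2B, and an ENTPD1 window held it 3 times. Any link of these sites to the changes was not tested. NT5E held TGACG once, with its first base 127 bases before the start. The bases around it are also annotated as exon and lie within the NT5E coordinates given above. The stretch at chr6:85449943-85449972, plus strand, reads as follows with TGACG in capitals.
NT5E: gggtcggatcgggTGACGtcgcgaacttgc

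ENTPD1 encodes CD39, which removes phosphates from ATP and ADP and so supplies CD73 with AMP. Its level was 5.41, 5.61 and 5.75 FPKM in the PMA libraries, against 4.88, 5.10 and 4.62 FPKM in the untreated libraries. The groups did not overlap, but the gap between them was small. The means were 5.59 ± 0.172 FPKM after PMA and 4.86 ± 0.238 FPKM in untreated cells (SD, n = 3 each). The log2 fold change was 0.24 ± 0.07 (standard error, 95% interval 0.07 to 0.40, adjusted p = 0.0175 by edgeR), a rise of 1.18-fold. This call did not hold widely: ENTPD1 was called in 9 of 19 settings, with adjusted p values from 0.00205 to 0.386, and was lost with no filter on low genes (log2 fold change 0.09, adjusted p = 0.384 by edgeR) and by DESeq2 (0.11, adjusted p = 0.386). It was also lost without PMA replicate 2 (adjusted p = 0.0611), PMA replicate 3 (0.0692) or untreated replicate 3 (0.0525), all by edgeR. ENTPD1 (ENSG00000138185, plus strand, chr10:95711779-95869695) overlaps the antisense gene ENTPD1-AS1, whose level was 0.213 to 0.260 FPKM after PMA and 0.401 to 0.573 FPKM in untreated cells. No source used here says that strand was used in counting, and reads of the overlap cannot be told apart.

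The balance of both surface enzymes stood apart between groups. NT5E stood at 2.71, 2.58 and 2.55 times the FPKM of ENTPD1 in the PMA libraries, against 0.25, 0.15 and 0.13 times in the untreated libraries. In FPKM, NT5E was above ENTPD1 in every PMA library and below it in every untreated library. The mean ratio was 2.62 ± 0.0836 after PMA and 0.173 ± 0.0651 in untreated cells (SD, n = 3 each, exact permutation p = 0.1, two-sided, the smallest that 3 against 3 libraries can give). This ratio was 1 of 12 shares, sums and ratios compared in this way, of which 11 reached 0.1, or 0.109 after Benjamini-Hochberg adjustment of the exact p. Without scaling to length this crossing was lost. NT5E had 69.0, 67.9 and 68.8 CPM (counts scaled to library size alone) in the PMA libraries, below the 80.5, 83.2 and 85.2 CPM of ENTPD1 in the same libraries, and the ratio differed by 0.772, PMA minus untreated, against 2.44 in FPKM.

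Of 12 listed ectonucleotidases 5 were tested, and 4 rose and none fell in the reported fit, where 32.7% of all genes rose. Beside NT5E and ENTPD1, these were ACP3, an acid phosphatase that can also release adenosine from AMP, and ENPP4, a surface pyrophosphatase. ACP3 rose by 1.03 on the log2 scale (standard error 0.15, adjusted p = 0.0005483 by edgeR) and averaged 3.95 ± 0.532 FPKM after PMA and 1.98 ± 0.289 FPKM in untreated cells (SD, n = 3 each). ENPP4 rose by 0.92 (standard error 0.16, adjusted p = 0.001119 by edgeR), with 5.54 ± 0.834 FPKM after PMA and 2.99 ± 0.414 FPKM in untreated cells. BST1, a relative of the NAD-consuming enzyme CD38, did not pass (log2 fold change -0.10, adjusted p = 0.553 by edgeR). The other 7 listed ectonucleotidases were under the test level. Of these CD38, an NAD-consuming enzyme, had 0.458 ± 0.0908 FPKM after PMA and 0.710 ± 0.106 FPKM in untreated cells (SD, n = 3 each) and was called lower in the 3 fits that kept it (log2 fold change -0.74 to -0.71, adjusted p from 0.0105 by DESeq2 to 0.0352 by edgeR with no filter). The 4 intracellular ENTPD enzymes, which act inside the secretory pathway or other organelles rather than on extracellular ATP, were mixed. ENTPD4 rose by 0.67 (standard error 0.08, adjusted p = 0.0001288 by edgeR), ENTPD5 fell by 0.47 (standard error 0.10, adjusted p = 0.004071 by edgeR), and ENTPD6 and ENTPD7 did not pass.

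ADA, adenosine deaminase, converts adenosine to inosine and fell. Its level was 0.80, 0.63 and 0.59 FPKM in the PMA libraries, against 1.71, 1.81 and 1.72 FPKM in the untreated libraries. No PMA library reached 1 FPKM and every untreated library did, so ADA was tested only because of its level in untreated cells. The means were 0.674 ± 0.113 FPKM after PMA and 1.75 ± 0.0572 FPKM in untreated cells (SD, n = 3 each). The log2 fold change was -1.32 ± 0.14 (standard error, 95% interval -1.64 to -1.01, adjusted p = 7.541e-05 by edgeR), which is 2.50-fold lower, and among all genes tested 8.38% were called at least 2-fold lower. ADA (ENSG00000196839, minus strand, chr20:44584896-44652222) overlaps PKIG on the opposite strand, which was also lower (log2 fold change -0.46, adjusted p = 0.0370 by edgeR).

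The adenosine enzymes moved in both directions. Of 7 tested, ADA included, 3 rose, 2 fell and 2 (PNP and AMPD2) did not pass. ADA2, the secreted deaminase made by monocytes and macrophages, rose by 0.53 on the log2 scale (standard error 0.11, adjusted p = 0.002815 by edgeR), with 4.50 ± 0.471 FPKM after PMA and 3.19 ± 0.206 FPKM in untreated cells (SD, n = 3 each). ADA and ADA2 thus changed in opposite directions, and ADA2 had the higher FPKM of the pair in both groups. AMPD3, which deaminates AMP, rose by 0.67 (standard error 0.11, adjusted p = 0.001172 by edgeR). ADK, the kinase that returns adenosine to AMP, rose by 0.39 (standard error 0.08, adjusted p = 0.002768 by edgeR), a call lost with no filter on low genes (0.25, adjusted p = 0.0502). AHCY, which releases adenosine from S-adenosylhomocysteine inside the cell, fell by 1.81 (standard error 0.08, adjusted p = 1.184e-06 by edgeR), with 29.6 ± 2.53 FPKM after PMA and 107 ± 2.77 FPKM in untreated cells.

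Nucleoside transporters carry adenosine across membranes, and the 4 that could be tested passed the threshold, as did 65.5% of all genes. SLC29A1, the main equilibrative transporter of the plasma membrane, fell by 1.10 on the log2 scale (standard error 0.09, adjusted p = 2.269e-05 by edgeR), with 19.0 ± 1.98 FPKM after PMA and 41.6 ± 0.367 FPKM in untreated cells (SD, n = 3 each). SLC29A2 fell by 1.39 (standard error 0.25, adjusted p = 0.001578 by edgeR) and SLC29A4 fell by 0.55 (standard error 0.14, adjusted p = 0.008281 by edgeR). SLC29A3, which works in lysosomes and mitochondria, rose by 0.85 (standard error 0.16, adjusted p = 0.00168 by edgeR). The count of 4 of 4 lies little beyond the share over all genes.

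Adenosine receptors were higher in sum after PMA. The 4 receptors added up to 18.2, 15.5 and 16.6 FPKM in the PMA libraries, against 6.84, 6.07 and 5.43 FPKM in the untreated libraries. The sums did not overlap, with means of 16.8 ± 1.37 FPKM after PMA and 6.11 ± 0.709 FPKM in untreated cells (SD, n = 3 each, exact permutation p = 0.1, the smallest possible). Both receptors that could be tested, ADORA3 and ADORA2B, rose.

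ADORA3 encodes a receptor that couples to the inhibitory G protein of adenylyl cyclase. Its level was 8.25, 7.85 and 8.32 FPKM in the PMA libraries, against 2.17, 1.86 and 1.90 FPKM in the untreated libraries. Every PMA library was above every untreated library. The means were 8.14 ± 0.257 FPKM after PMA and 1.98 ± 0.169 FPKM in untreated cells (SD, n = 3 each). The rise was 4.20-fold, or 2.07 ± 0.12 on the log2 scale (standard error, 95% interval 1.80 to 2.35, adjusted p = 3.507e-06 by edgeR), and 14.5% of all genes tested were called at least 2-fold higher. ADORA3 (ENSG00000282608, minus strand, chr1:111499429-111503633) lies within TMIGD3 on the same strand, so the counting could split reads between them. TMIGD3 was also higher, at 2.12 to 2.94 FPKM after PMA and 0.446 to 0.564 FPKM in untreated cells (log2 fold change 2.25, standard error 0.21, adjusted p = 4.3392e-05 by edgeR). The ADORA3 promoter window is shown because it held the only PU.1 match among the 11 windows, read here as ACTTCCTC, with its first base 144 bases before the start. It spans chr1:111503634-111503883, minus strand, with the match in capitals.
ADORA3: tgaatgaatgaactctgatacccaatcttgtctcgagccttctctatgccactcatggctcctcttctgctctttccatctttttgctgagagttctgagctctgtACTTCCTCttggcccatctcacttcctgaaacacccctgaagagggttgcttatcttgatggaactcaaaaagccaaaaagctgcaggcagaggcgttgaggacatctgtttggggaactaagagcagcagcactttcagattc

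ADORA2B encodes a low-affinity receptor that raises cyclic AMP through the stimulatory G protein. Its level was 8.71, 6.58 and 7.21 FPKM in the PMA libraries, against 4.58, 4.16 and 3.26 FPKM in the untreated libraries. The groups did not overlap, although the PMA libraries were spread more widely than those of ADORA3. The means were 7.50 ± 1.09 FPKM after PMA and 4.0 ± 0.671 FPKM in untreated cells (SD, n = 3 each). The rise was 1.92-fold, or 0.94 ± 0.16 on the log2 scale (standard error, 95% interval 0.57 to 1.32, adjusted p = 0.001201 by edgeR). ADORA2B (ENSG00000170425) lies on the plus strand of chr17:15945130-15975746. Its promoter window is shown because it was the only one with matches of 2 kinds, TGACG with its first base 226 bases before the start and GCGCGGGCG (EGR) 149 bases before it. It spans chr17:15944880-15945129, plus strand, with both matches in capitals.
ADORA2B: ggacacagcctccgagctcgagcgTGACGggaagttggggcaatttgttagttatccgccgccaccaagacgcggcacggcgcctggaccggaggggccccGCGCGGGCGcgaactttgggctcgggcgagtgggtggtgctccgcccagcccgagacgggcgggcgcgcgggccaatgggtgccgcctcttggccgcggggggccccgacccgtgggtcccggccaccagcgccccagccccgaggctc

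ADORA2A encodes the high-affinity receptor that couples to the same stimulatory G protein. It had 205, 150 and 178 counts in the PMA libraries, against 0, 8 and 42 counts in the untreated libraries. These are 0.70, 0.54 and 0.63 FPKM after PMA and 0.00, 0.02 and 0.15 FPKM in untreated cells. All PMA libraries were above all untreated libraries, but the gene stayed under 1 FPKM throughout and was not tested in the reported fit. The means were 0.622 ± 0.0842 FPKM after PMA and 0.0561 ± 0.0833 FPKM in untreated cells (SD, n = 3 each). Where it was tested the log2 fold change was close to 3.3 and the call depended on the setting. It was 3.33 (standard error 1.09, adjusted p = 0.0559 by edgeR) with no filter, 3.36 (standard error 1.05, adjusted p = 0.0277 by edgeR) with edgeR's own filter, and 3.31 (standard error 1.58, adjusted p = 0.0803) by DESeq2. ADORA2A (ENSG00000128271, plus strand, chr22:24417879-24442356) overlaps ADORA2A-AS1 on the opposite strand and the read-through gene SPECC1L-ADORA2A on the same strand, which had 0, 63 and 0 counts after PMA and 71, 41 and 0 counts in untreated cells. The counting could split reads between them, so the ADORA2A counts are uncertain.

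The make-up of the family differed between groups. ADORA3 made up 45.3, 50.7 and 49.996% of the summed adenosine receptor FPKM in the PMA libraries, against 31.7, 30.5 and 35.0% in the untreated libraries. ADORA2B made up 47.9, 42.6 and 43.3% after PMA, against 66.9, 68.5 and 60.1% in untreated cells. ADORA2B was thus the leading adenosine receptor transcript in all untreated libraries, while after PMA both receptors were near each other. The mean shares were 48.7 ± 2.92% after PMA and 32.4 ± 2.34% in untreated cells for ADORA3, and 44.6 ± 2.87% after PMA and 65.2 ± 4.42% in untreated cells for ADORA2B (SD, n = 3 each, exact permutation p = 0.1 for both, the smallest possible). ADORA1, the remaining family member, had 0.508 ± 0.0237 FPKM after PMA and 0.0839 ± 0.0348 FPKM in untreated cells (SD, n = 3 each) and was under the test level.

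**Figure D2:**
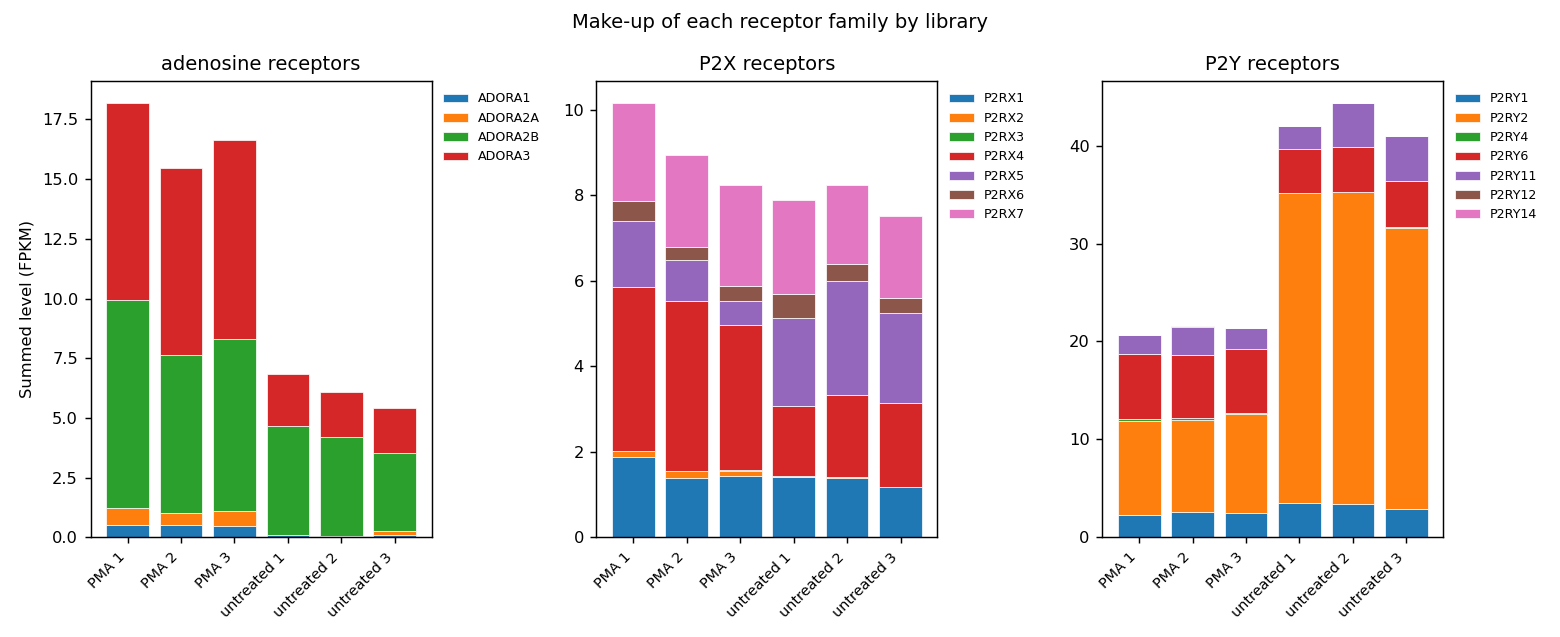
Summed FPKM of the adenosine, P2X and P2Y receptor families (vertical axes) in each of the 3 PMA and 3 untreated libraries, with a colour for each receptor. Adenosine receptors summed to 15.5 to 18.2 FPKM after PMA and 5.43 to 6.84 FPKM in untreated cells, while the P2Y sum was 20.7 to 21.6 FPKM after PMA and 41.0 to 44.4 FPKM in untreated cells.

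P2RX4 encodes an ATP-gated cation channel that sits largely in lysosomes of macrophages. Its level was 3.83, 3.99 and 3.39 FPKM in the PMA libraries, against 1.62, 1.92 and 1.96 FPKM in the untreated libraries. The groups did not overlap. The means were 3.74 ± 0.312 FPKM after PMA and 1.83 ± 0.186 FPKM in untreated cells (SD, n = 3 each). The rise was 2.08-fold, or 1.06 ± 0.12 on the log2 scale (standard error, 95% interval 0.78 to 1.33, adjusted p = 0.0001235 by edgeR).

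P2RX7 encodes the ATP-gated channel that opens at high ATP and is known for triggering the NLRP3 inflammasome in macrophages. Its level was 2.29, 2.15 and 2.37 FPKM in the PMA libraries, against 2.18, 1.84 and 1.93 FPKM in the untreated libraries. Untreated replicate 1 was above PMA replicate 2, so the groups overlapped. The means were 2.27 ± 0.113 FPKM after PMA and 1.99 ± 0.177 FPKM in untreated cells (SD, n = 3 each). The log2 fold change was 0.23 ± 0.12 (standard error, with adjusted p = 0.1341 by edgeR) with a 95% interval of -0.05 to 0.51, which leaves room for a small rise. P2RX7 passed the threshold in none of 18 settings (adjusted p from 0.0936 to 0.658).

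P2RX7 (ENSG00000089041, chr12:121132819-121188032) and P2RX4 (ENSG00000135124, chr12:121210065-121234106) are neighbours on the plus strand, 22032 bases apart. P2RX7 stood at 0.598, 0.538 and 0.699 times the FPKM of P2RX4 in the PMA libraries, against 1.35, 0.960 and 0.987 times in the untreated libraries. In FPKM, P2RX4 was the higher of the pair in every PMA library and near P2RX7 in untreated cells. The mean ratios were 0.611 ± 0.0815 after PMA and 1.10 ± 0.218 in untreated cells (SD, n = 3 each, exact permutation p = 0.1, the smallest possible). Without scaling to length P2RX4 was above P2RX7 in every untreated library too. It had 13.4, 15.7 and 16.1 CPM there, against 12.6, 10.5 and 11.1 CPM for P2RX7. P2RX4 made up 41.2 ± 3.47% of summed P2X FPKM after PMA and 23.3 ± 2.75% in untreated cells (SD, n = 3 each). The share of P2RX7 was 25.1 ± 3.22% after PMA and 25.3 ± 2.70% in untreated cells (SD, n = 3 each, exact permutation p = 1), a difference whose sign changed when single libraries were left out. Of 4 P2X receptors tested, P2RX4 rose, P2RX5 fell, and P2RX1 and P2RX7 did not pass. P2RX5 fell by 1.11 on the log2 scale (standard error 0.32, adjusted p = 0.01564 by edgeR), with 1.02 ± 0.476 FPKM after PMA and 2.28 ± 0.341 FPKM in untreated cells (SD, n = 3 each). It reached 1 FPKM in 1 PMA library and in all 3 untreated libraries, so the test level was met mainly through untreated cells. With 1 library left out its log2 fold change ran from -1.52 to -0.83 (adjusted p up to 0.0490 by edgeR).

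P2RY2 encodes the receptor for ATP and UTP, a sensor of nucleotides from dying cells, and was the most abundant of the 10 genes in untreated cells. Its level was 9.67, 9.40 and 10.1 FPKM in the PMA libraries, against 31.6, 31.9 and 28.7 FPKM in the untreated libraries. No PMA library came near an untreated library. The means were 9.73 ± 0.376 FPKM after PMA and 30.7 ± 1.74 FPKM in untreated cells (SD, n = 3 each). The log2 fold change was -1.62 ± 0.07 (standard error, 95% interval -1.79 to -1.46, adjusted p = 9.481e-07 by edgeR), which is 3.08-fold lower, and P2RY2 ranked 213 from the largest fall among 12947 genes. Leaving out any 1 library moved the log2 fold change only between -1.65 and -1.60.

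P2RY6 encodes the receptor for UDP, known in macrophages for chemokine release and phagocytosis, and rose. Its level was 6.59, 6.41 and 6.49 FPKM in the PMA libraries, against 4.53, 4.61 and 4.71 FPKM in the untreated libraries. The libraries of each group were within 0.2 FPKM of each other and the groups did not overlap. The means were 6.50 ± 0.0939 FPKM after PMA and 4.62 ± 0.0909 FPKM in untreated cells (SD, n = 3 each). The rise was 1.44-fold, or 0.53 ± 0.07 on the log2 scale (standard error, 95% interval 0.36 to 0.69, adjusted p = 0.0003593 by edgeR), and the call held in 19 of 19 settings.

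P2RY2 (ENSG00000175591, chr11:73218281-73242427) and P2RY6 (ENSG00000171631, chr11:73264498-73299066) are neighbours on the plus strand, 22070 bases apart, and changed in opposite directions. P2RY2 made up 46.7, 43.6 and 47.4% of summed P2Y FPKM in the PMA libraries, against 75.2, 71.9 and 70.0% in the untreated libraries. P2RY6 made up 31.9, 29.7 and 30.4% after PMA, against 10.8, 10.4 and 11.5% in untreated cells. The P2Y sum covers 7 of 8 listed receptors. Among these P2RY2 stayed the leading transcript in every library, with a smaller lead after PMA. The summed P2Y level was 21.2 ± 0.455 FPKM after PMA and 42.5 ± 1.72 FPKM in untreated cells (SD, n = 3 each, exact permutation p = 0.1 for the sum and both shares, the smallest possible). Of 4 P2Y receptors tested, P2RY6 rose, P2RY2 and P2RY1 fell, and P2RY11 did not pass. P2RY1, an ADP receptor, fell by 0.40 on the log2 scale (standard error 0.11, adjusted p = 0.0136 by edgeR), a call lost without untreated replicate 1 (-0.34, adjusted p = 0.0571) or without untreated replicate 2 (-0.37, adjusted p = 0.0552).

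Of 5 tested genes of ATP release 4 rose and 1 fell, where 32.7% of all genes rose and 32.8% fell, and GJA1 and PANX3 were under the test level. PANX1 forms the pannexin channel through which ATP leaves macrophages and dying cells. Its level was 24.8, 27.4 and 27.9 FPKM in the PMA libraries, against 5.17, 5.09 and 4.45 FPKM in the untreated libraries. The groups were far apart, and the log2 fold change was 2.48 ± 0.09 (standard error, with adjusted p = 4.458e-07 by edgeR). ANO6, a scramblase and channel also linked to ATP release, rose by 0.78 (standard error 0.08, adjusted p = 5.203e-05 by edgeR), and LRRC8A, the core subunit of the volume-regulated anion channel, rose by 0.66 (standard error 0.10, adjusted p = 0.0004745 by edgeR). PANX2 rose as well (0.66, standard error 0.20, adjusted p = 0.01949 by edgeR), but was called in only 11 of 18 settings (adjusted p up to 0.102). SLC17A9, which loads ATP into secretory vesicles, fell by 0.74 (standard error 0.15, adjusted p = 0.002827 by edgeR).

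Over the whole purinergic list, 54 of 57 listed genes were analysed here and 35 were tested. Of these, 17 rose, 10 fell and 8 did not pass, and the share called (77.1%) was set against 65.5% of all genes tested. Without the 10 genes described above, 26 were tested, of which 11 rose, 8 fell and 7 did not pass (73.1% called, median log2 fold change 0.16).

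**Figure D3:**
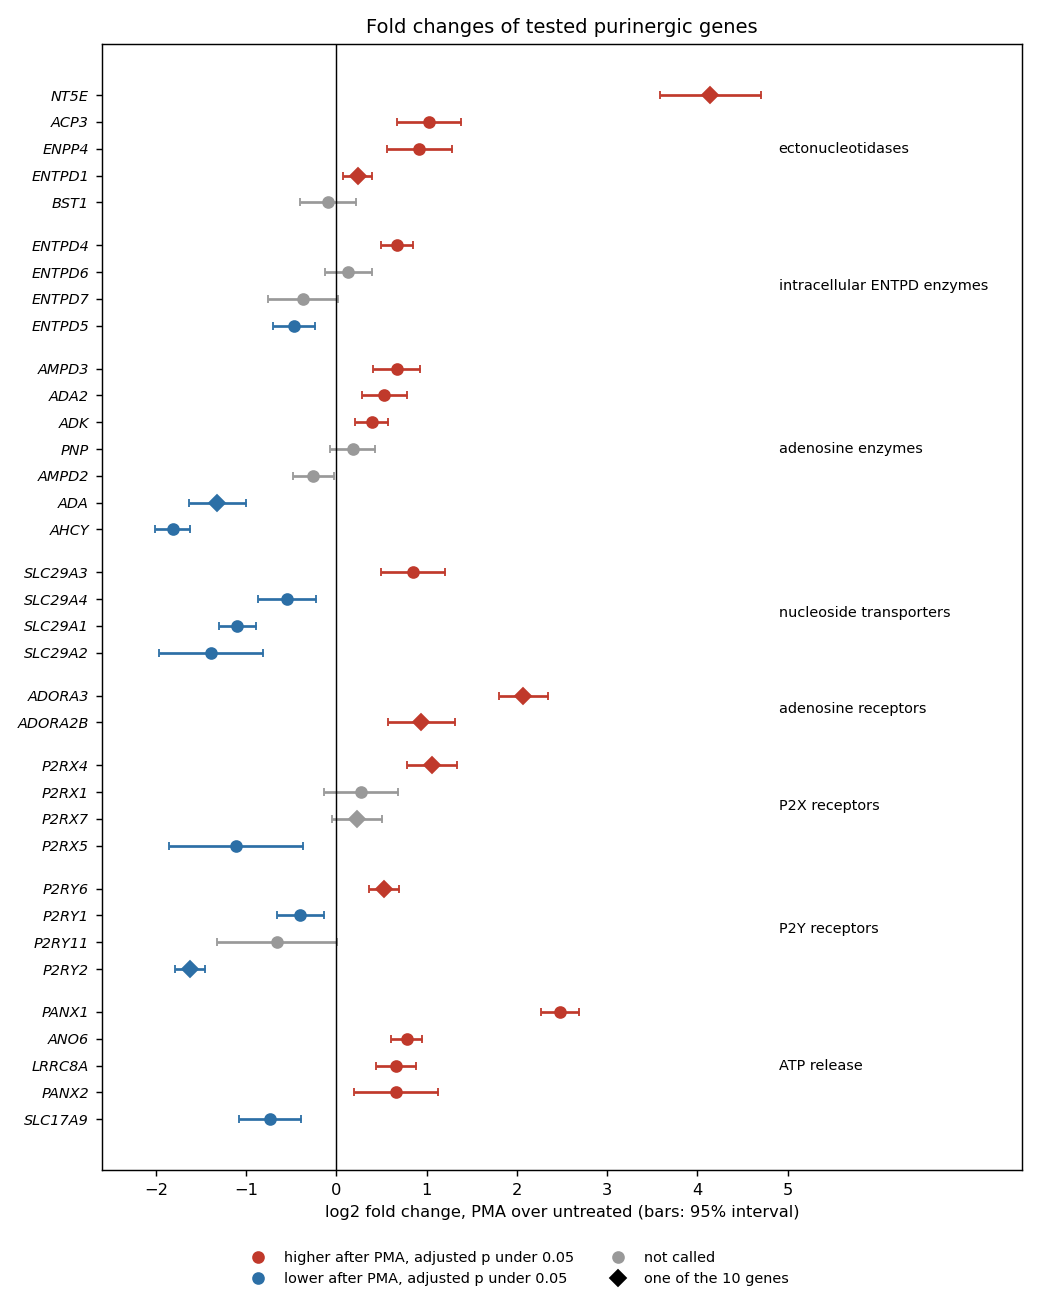
Log2 fold change, PMA over untreated (horizontal axis), of the 35 tested purinergic genes by role, with 95% intervals and colours for the call (adjusted p under 0.05 by edgeR). Diamonds mark the 10 genes described here where tested, and NT5E (4.14) and PANX1 (2.48) stand furthest to the right while AHCY (-1.81) and P2RY2 (-1.62) stand furthest to the left.

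The order of the 10 genes by FPKM, a scale that allows for length, differed between groups. After PMA it ran NT5E, P2RY2, ADORA3, ADORA2B, P2RY6, ENTPD1, P2RX4, P2RX7, ADA and ADORA2A, and neighbours overlapped between libraries from ADORA3 to ADORA2B, from ADORA2B to P2RY6 and from ADA to ADORA2A. In untreated cells it ran P2RY2, ENTPD1, P2RY6, ADORA2B, P2RX7, ADORA3, P2RX4, ADA, NT5E and ADORA2A, and overlaps ran from ENTPD1 through P2RY6 to ADORA2B and from P2RX7 through ADORA3 and P2RX4 to ADA. By FPKM, NT5E was thus first after PMA and ninth in untreated cells. P2RY2 was second after PMA and first in untreated cells on that scale. Without scaling to length NT5E was not first after PMA. Its mean there was 68.6 CPM, below P2RY2 (90.1 CPM), ENTPD1 (83.0 CPM) and P2RY6 (72.5 CPM).

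The direction of each of the 9 tested genes was the same in every setting tried. Values shrank on log2(FPKM + 5), where the added constant outweighs low genes: NT5E rose by 1.75, ADORA3 by 0.91, ADORA2B by 0.47, P2RX4 by 0.35 and P2RY6 by 0.26, and ADA fell by 0.25, and all 6 still passed by limma. On log2(FPKM + 1) ADA fell by 0.72. Fits that kept more low genes moved the median of all genes by -0.12 to -0.15 on the log2 scale, and the values of these genes moved with it, which matters for the small changes of ENTPD1 and P2RX7.

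**Figure D4:**
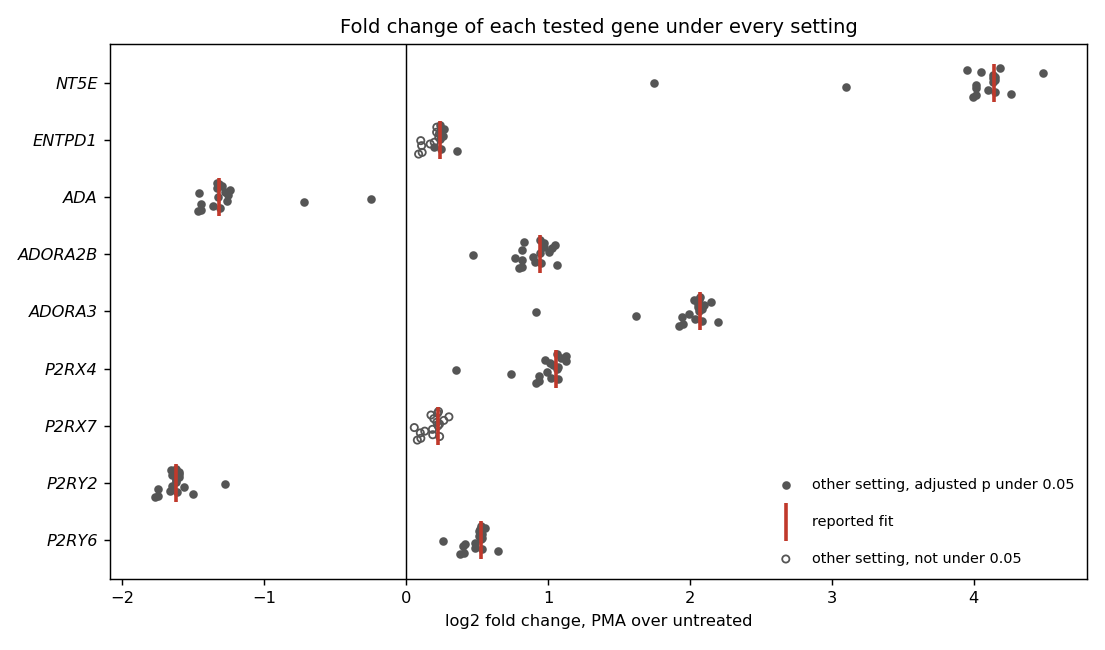
Log2 fold change, PMA over untreated (horizontal axis), of the 9 tested genes under each setting, with the reported fit as a vertical bar and filled points for an adjusted p under 0.05. No gene crosses 0, ENTPD1 is mixed (called in 9 of 19 settings), and P2RX7 has open points only.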

How the data were processed

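RNA-seq (oligo(dT)-selected mRNA, read pairs) of 3 PMA-treated and 3 untreated THP-1 libraries was analysed. The authors deposited 1 table with an estimated count, neither scaled to length nor to library size, and an FPKM value (scaled to both) for 35424 features. The genome build in the submitters' processing notes is hg38, and DESeq2 is the tool they name. The aligner, counter, annotation and strand setting were not given in the sources used here. Of low counts between 3 and 22, 37.2 to 39.1% were multiples of 4, so dividing by 4 was tried as an alternative. For repeated names the feature with the highest mean was kept (35042). Counts, rounded, were tested with edgeR 4.0.16 (R 4.3.3; quasi-likelihood, TMM factors 0.984 to 1.02, treatment as the only term) over the 12947 genes at 1 FPKM or more in 3 or more libraries, called at a Benjamini-Hochberg adjusted p under 0.05. The standard error is the log2 fold change over the square root of F and is approximate. Shares of summed FPKM were compared by exact permutation tests, two-sided. Alternatives were other filters, size factors, DESeq2 1.42.0, limma 3.58.1 on log2(FPKM + 0.1, 1 or 5), libraries left out and a replicate block.

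Libraries were grouped by their labels. A figure legend in the study's supplement describes its replicates as independent experiments. The reporting summary instead speaks of 3 or more technical replicates, repeated on separate occasions. The statistical methods state at least 3 repeats on separate days for all experiments, without naming the RNA-seq libraries. Whether the libraries came from separate cultures could not be settled. Replicates 2 and 3 of the PMA group lay nearer together (median absolute log2 difference 0.0851) than any other pair of a group (0.126 to 0.222), and were kept as separate replicates, with a fit that adds them together as an alternative. Precision is limited by 3 libraries a group, and reads carry no molecular identifiers. The genes and lists were chosen with earlier results of these data known. Named genes were the 10 genes, up to 4 called genes with the largest change in each purinergic list, genes overlapping the 10, and the 3 genes nearest in pattern to the largest rise and fall. PANX2, the uncalled genes and those under the test level were named beyond this rule, after their values were seen, to complete small counts. One marker gene is not reported here.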

Additional observations from a re-analysis of the deposited data

How the results depend on the processing

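Over 35 named genes and 613 gene settings, direction and side of the threshold were kept in 572, with 20 losses, 18 gains and 3 reversals. The losses were 10 for ENTPD1 (lowest log2 fold change 0.09 with no filter), 7 for PANX2, 1 for ADK and 2 for P2RY1. The gains were of genes not called in the reported fit, 9 for AMPD2, 4 for P2RY11, 3 for ENTPD7 and 2 for PNP. The reversals were of uncalled genes near 0, ENTPD6 with no filter (-0.014), BST1 with a mean FPKM of at least 5 (0.028) and BST1 without PMA replicate 3 (0.015, over a range of -0.23 to 0.015 with 1 library left out). A stricter filter (mean FPKM of at least 5) left 7142 genes, of which 2433 were higher and 2457 lower. It left 6 of the 10 genes with 1 lower, since ADA was too low to be tested, and 18 purinergic genes with 11 higher and 4 lower. Without scaling to length (CPM), the difference in share, PMA minus untreated, was 4.28 percentage points for ADORA2A, -3.14 for P2RX7 and 25.3 for P2RY6, and that of the NT5E to ENTPD1 ratio was 0.772. The P2RX7 share difference ran from -1.98 to 1.11 percentage points with 1 library left out. It turned positive without PMA replicate 1 (1.11), PMA replicate 2 (0.371), untreated replicate 1 (1.06) or untreated replicate 3 (0.0461), so it had no stable sign.

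Whether replicate numbers pair the libraries could not be settled from 3 libraries a group. Same-numbered libraries correlated in their deviations at 0.377, 0.0384 and 0.0257, the first being the highest of any pair. Those numbered 2 and 3 did not correlate best with their own number. With the replicate number as a block, 4657 genes were higher and 4758 lower, against 4232 higher and 4253 lower in the reported fit. With that block the 10 genes had 6 higher and 2 lower, and the purinergic list had 18 higher and 12 lower. The block added calls for PNP (higher, adjusted p = 0.0247 by edgeR), AMPD2 (lower, 0.00731) and P2RY11 (lower, 0.0300) and changed no other call among the named genes. P2RX7 missed the threshold with a standard error of 0.12, against 0.07 for ENTPD1 at a like fold change.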

Other observations

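The genes whose pattern over the 6 libraries was nearest to NT5E, by Euclidean distance between centred log2 CPM values, were PCDHGC5 (0.313), SPTBN5 (0.314) and SLC16A8 (0.340). PCDHGC5, a clustered protocadherin, had 4.52 ± 0.481 FPKM after PMA and 0.234 ± 0.0949 FPKM in untreated cells (SD, n = 3 each). SPTBN5, a spectrin, had 2.21 ± 0.156 FPKM after PMA and 0.108 ± 0.0379 FPKM in untreated cells. SLC16A8, a monocarboxylate transporter, had 3.31 ± 0.282 FPKM after PMA and 0.184 ± 0.0762 FPKM in untreated cells. All are lower in level than NT5E.

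Nearest to P2RY2 were PFAS (0.0986), GCAT (0.128) and RUVBL2 (0.144). PFAS, an enzyme of purine synthesis, had 5.50 ± 0.301 FPKM after PMA and 17.9 ± 1.62 FPKM in untreated cells (SD, n = 3 each). GCAT, a mitochondrial enzyme of threonine breakdown, had 2.71 ± 0.0991 FPKM after PMA and 8.35 ± 0.703 FPKM in untreated cells. RUVBL2, an ATPase of chromatin remodelling complexes, had 32.0 ± 1.39 FPKM after PMA and 98.2 ± 5.15 FPKM in untreated cells. These likenesses rest on 2 groups of 3 libraries and many genes with a like fold change lie near each other.

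Among genes under the test level, calls were made in both directions by the 3 fits that kept them. The fit on counts divided by 4, tried because low counts were often multiples of 4, did not cover these genes. ADORA1 was called higher in all 3 fits that kept it, by 2.46 ± 0.40 on the log2 scale (standard error, with adjusted p = 0.00221) by edgeR with no filter and adjusted p values of 0.000972 with edgeR's own filter and 7.915e-08 by DESeq2. P2RY4, a receptor for UTP, was called higher in the same 3 fits (log2 fold change 2.45 to 2.51, adjusted p from 0.0197 to 0.0452), at 28, 30 and 20 counts after PMA and 4, 2 and 8 counts in untreated cells. P2RX2 was called higher in 2 of the 3 (adjusted p from 0.0173 to 0.0548), at 22, 22 and 15 counts after PMA and 4, 4 and 0 counts in untreated cells. DPP4, which anchors ADA at the surface of T cells, was called lower in all 3 (log2 fold change -0.88 to -0.86, adjusted p from 0.000684 to 0.0125), with 0.225 ± 0.0432 FPKM after PMA and 0.384 ± 0.0403 FPKM in untreated cells (SD, n = 3 each). AMPD2, which deaminates AMP, and P2RY11, a receptor for ATP, missed the threshold in the reported fit (adjusted p = 0.05095 and 0.0743 by edgeR) and were called lower by DESeq2 (adjusted p = 0.00405 and 0.0152), with calls in 9 of 19 settings for AMPD2 and 4 of 18 for P2RY11.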
